A study of Mus musculus with 24 samples.

Results

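The histone genes of the classic gene clusters were followed across 8 total RNA libraries of C2C12 cells, a mouse myoblast line that leaves the cell cycle and fuses into myotubes when serum is withdrawn. Members were the 67 of 24043 genes in the deposited gene table whose symbol starts with Hist1h to Hist4h, grouped by the protein class in the symbol into 6 H1, 18 H2a, 18 H2b, 12 H3 and 13 H4 genes. By their current RefSeq entries, 53 lie on chromosome 13 (the large Hist1 cluster), 10 on chromosome 3 (Hist2), 3 on chromosome 11 (Hist3) and 1 on chromosome 6 (Hist4h4).

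The study grew or differentiated the cells at high or low oxygen and compared gene expression and a repressive histone mark; the 16 chromatin and input libraries are not analysed here. GM_NOR cells were in growth medium, DMEM with 10% FBS, at 21% oxygen, and GM_HYP cells in growth medium at 2% oxygen. DM_NOR and DM_HYP cells were in differentiation medium, DMEM with 2% horse serum and an ITS supplement, at 21% and 2% oxygen. Each group had 2 libraries, A and B, which the design text calls biological replicates; all groups are the same cell line and carry no engineered allele, and the length of the low-oxygen exposure and the day of harvest are not given in the sources used here.

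Core histones H2A, H2B, H3 and H4 form the protein spool of the nucleosome, and linker histone H1 binds where DNA enters and leaves it. Most genes of these clusters are replication-dependent: they are transcribed together in S phase, their mRNAs usually end in a stem-loop bound by SLBP instead of a poly(A) tail, and these mRNAs are degraded when DNA synthesis stops. Some of them, Hist1h1c, Hist1h2bc and Hist2h2be among them, are known to also give polyadenylated transcripts, above all in cells that have stopped dividing. Variant histones such as H3f3a, H3f3b, H2afz and H1f0 are encoded elsewhere, by genes with introns or with poly(A) tails, and are made throughout the cell cycle.

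Values are FPKM, fragments scaled to transcript length and to the mapped fragments of the library, so levels of different genes are compared per length. The summed FPKM of a library was between 480018 and 534167, total fragment counts are not given, and the steps between low values put the relative depth of the libraries between 0.633 (DM_HYP B) and 1 (DM_HYP A). Markers of the line were present in every library (Myod1 6.95 to 180 FPKM), the myotube gene Myog reached 2576 and 2642 FPKM in DM_NOR but 4.49 and 2.14 in DM_HYP, and 21 of 23 markers of other cell types stayed at or below 1.18 FPKM (Fabp4, an adipocyte gene); the epithelial gene Cdh1 measured 0.390 and 0.657 FPKM in DM_NOR and at most 0.0511 elsewhere. Of 4 macrophage and leukocyte markers, Cd68 measured 1.76 to 3.57 FPKM in 6 libraries and 25.8 and 42.8 in DM_HYP, and the other 3 stayed at or below 0.167, with Emr1 at 0 in all 8. Of 3 neuron markers, Tubb3 measured 3.91 to 15.1 FPKM in 6 libraries and 36.8 and 65.7 in DM_HYP, Rbfox3 stayed at or below 0.0261 and Snap25 was at 0 in all 8. The DM_HYP libraries stood apart from each other: 613 of 12389 tested genes were over 2-fold apart between A and B, against 56 to 71 in the other groups, and all 38 tested genes of an S phase and DNA replication list were higher in B. For that reason levels in DM_HYP are given for A and B separately.

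Histone transcripts of these clusters were low. Only 2 members, Hist1h1c and Hist1h2bc, exceeded 50 FPKM in any library, 16 exceeded 10 and 45 exceeded 1; Hist1h2aa was listed at 0 in all 8 libraries. The 67 members together made up 110 and 94.3 FPKM in GM_NOR A and B, 353 and 362 in GM_HYP, 340 and 378 in DM_NOR, and 607 and 415 in DM_HYP, or 0.0197% to 0.116% of all FPKM. The lowest sums were those of growth medium at 21% oxygen, and no library of another group overlapped them. In bulk RNA, fewer cells with histone mRNA and less histone mRNA per cell cannot be told apart. By comparison, the variant genes H3f3a and H3f3b alone lay between 239 and 441 FPKM and between 236 and 392 FPKM. The labels describe a stranded total RNA preparation, which would retain RNAs without a poly(A) tail; among other RNAs of that kind, Rmrp lay between 0.666 and 11.7 FPKM and Rpph1 between 0.419 and 3.99, Terc was listed at 0 in 4 libraries, Rnu11 and Rnu12 were listed at 0 in all 8, and 65 of 114 small nucleolar RNA genes were at 0 in every library. These 5 RNAs were chosen after their values were seen, and whether short or tailless RNAs were lost before or during quantification was not tested.

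The summed levels of the 5 classes took different courses. H1 genes summed to 34.5 and 32.4 FPKM in GM_NOR, 71.3 and 80.1 in GM_HYP, 186 and 206 in DM_NOR, and 38.6 and 22.1 in DM_HYP, so the highest H1 level belonged to differentiation medium at 21% oxygen. H2b genes summed to 28.3 and 25.5 FPKM in GM_NOR, 176 and 178 in GM_HYP, 88.8 and 96.7 in DM_NOR, and 388 and 250.1 in DM_HYP, with both low-oxygen groups above both groups at 21%. H4 sums followed the order of H2b, with 13.1 and 7.96 FPKM in GM_NOR, 48.2 and 50.7 in GM_HYP, 25.9 and 32.3 in DM_NOR, and 76.8 and 53.1 in DM_HYP. H2a and H3 sums spanned less, from 18.6 to 80 FPKM and from 9.87 to 26.9 FPKM, and were highest in DM_HYP. The share of the highest gene differed between classes: Hist1h1c held 88.3% to 92.9% of the H1 sum, Hist1h2bc 37.2% to 54.5% of the H2b sum, Hist3h2a 30.9% to 65.4% of the H2a sum, Hist2h3c2 11.6% to 49.9% of the H3 sum and Hist1h4i 12.9% to 32.6% of the H4 sum. Without its highest member, Hist2h3c2, the H3 sum in DM_NOR was 0.808 of that in GM_NOR, against 1.32 with it, so the direction of the H3 sum there rested on that gene.

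**Figure D1:**
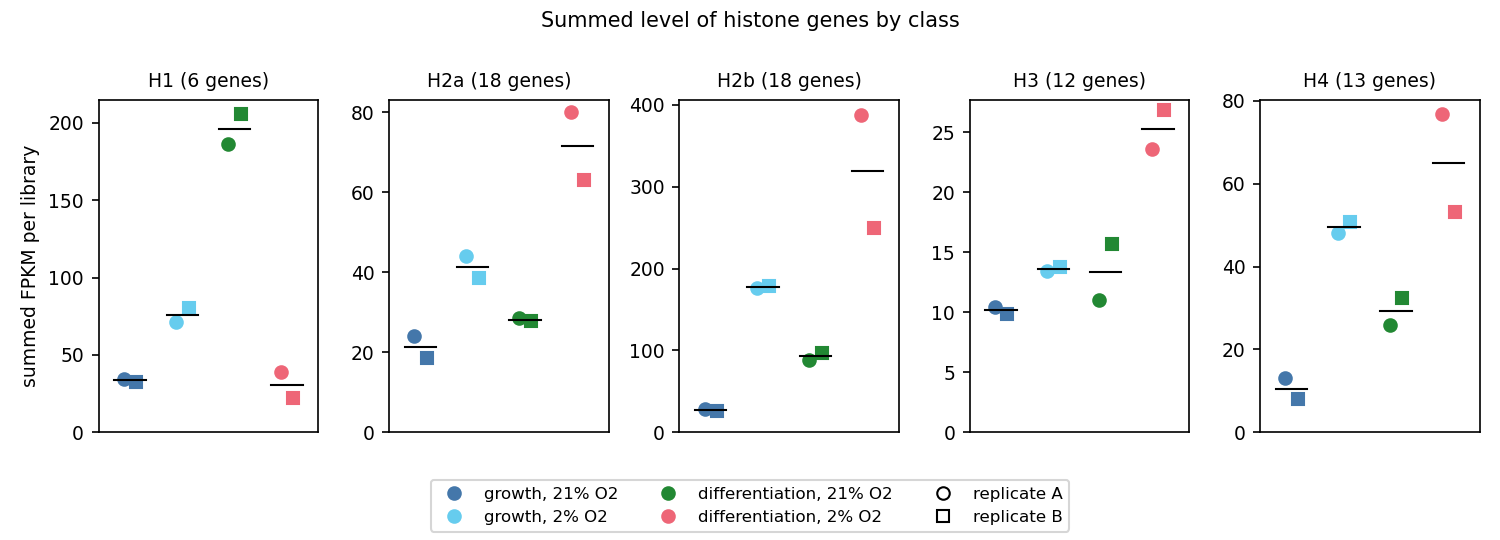
Summed FPKM (linear vertical axes from 0, scaled separately) of the histone genes of each class in each of the 8 libraries; circles are replicate A, squares replicate B, and black lines the group means. H1 is highest in differentiation medium at 21% oxygen, 186 and 206 FPKM, whereas H2b is highest in differentiation medium at 2% oxygen, 388 and 250.1 FPKM.

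Changes were tested with limma on log2(FPKM + 1) across the 12389 genes whose group mean reached 1 FPKM in 1 or more groups, and log2 changes below are on that scale with their standard error. Of the 67 members 43 passed this filter and 24 did not; because a member could pass through the one group where it is high, counts over those 43 are descriptions. Comparisons with a group in common share its libraries, so their counts are not independent. In differentiation medium at 21% oxygen (DM_NOR against GM_NOR) 28 of the 43 were higher and 3 lower, beside 25.5% higher and 41% lower of all genes tested. In differentiation medium at 2% oxygen (DM_HYP against GM_HYP) 16 were higher and 3 lower, beside 23.3% and 17.6% of all genes. Differentiation at 2% oxygen below names this change of medium only. Like Myog, the other myotube markers stayed low in DM_HYP: Acta1 measured 6.47 and 5.06 FPKM there, against 2299 and 2235 in DM_NOR. At 2% oxygen in growth medium (GM_HYP against GM_NOR) 27 were higher and 3 lower, beside 13.5% and 28%, and at 2% oxygen in differentiation medium (DM_HYP against DM_NOR) 28 were higher and 4 lower, beside 37.5% and 27.7%. The interaction, the difference between the responses to medium at the 2 oxygen levels, was past the threshold upward for 5 members and downward for 8, beside 35.4% and 18.7% of all genes.

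Low oxygen in differentiation medium had 32 calls in all, 25 under median-of-ratios scaling and 23 when a log2 change of at least 1 was also asked. Differentiation at 2% oxygen had 19 calls in all, 9 from its own 4 libraries alone, 8 without GM_HYP A and 6 without GM_HYP B. For differentiation at 21% oxygen 31 were called in all and 19 without DM_NOR B. The interaction had 13 calls in all, 24 without DM_HYP A, and under median-of-ratios scaling its split was 3 upward and 11 downward. The median change of the 43 members was 0.93, 0.60, 1.02, 0.83 and -0.32 in the 5 comparisons in the order above, beside -0.20, 0.07, -0.14, 0.15 and 0.27 for all genes tested; median-of-ratios scaling moved the all-gene medians to between -0.04 and 0.03.

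A count that needs no filter covers all 67 members. Both libraries were above both reference libraries for 35 members and below for 13 in differentiation medium at 21% oxygen (30.3% and 42.3% of all genes above 0), for 41 and 4 in differentiation medium at 2% oxygen (33.5% and 25.5%), for 36 and 15 at 2% oxygen in growth medium (24.6% and 38.8%) and for 43 and 7 at 2% oxygen in differentiation medium (41.4% and 30%). The members that were lower in growth medium at 2% oxygen were 8 H3, 6 H2a and 1 H2b gene, and no H1 or H4 gene was among them. The fit without a filter tested 66 members. With differentiation at 21% oxygen 25 were higher and 7 lower, beside 20.4% and 29.3% of all genes, and with differentiation at 2% oxygen 11 and 3, beside 15.8% and 12%. At 2% oxygen 27 were higher and 3 lower in growth medium, beside 10.1% and 18.8%, and 27 and 6 in differentiation medium, beside 28.5% and 21.9%. The interaction was upward for 7 and downward for 6, beside 24.7% and 14.9%. The 24 members that did not pass the filter reached at most 1.446 FPKM in any library (Hist1h4m in GM_HYP A).

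**Figure D2:**
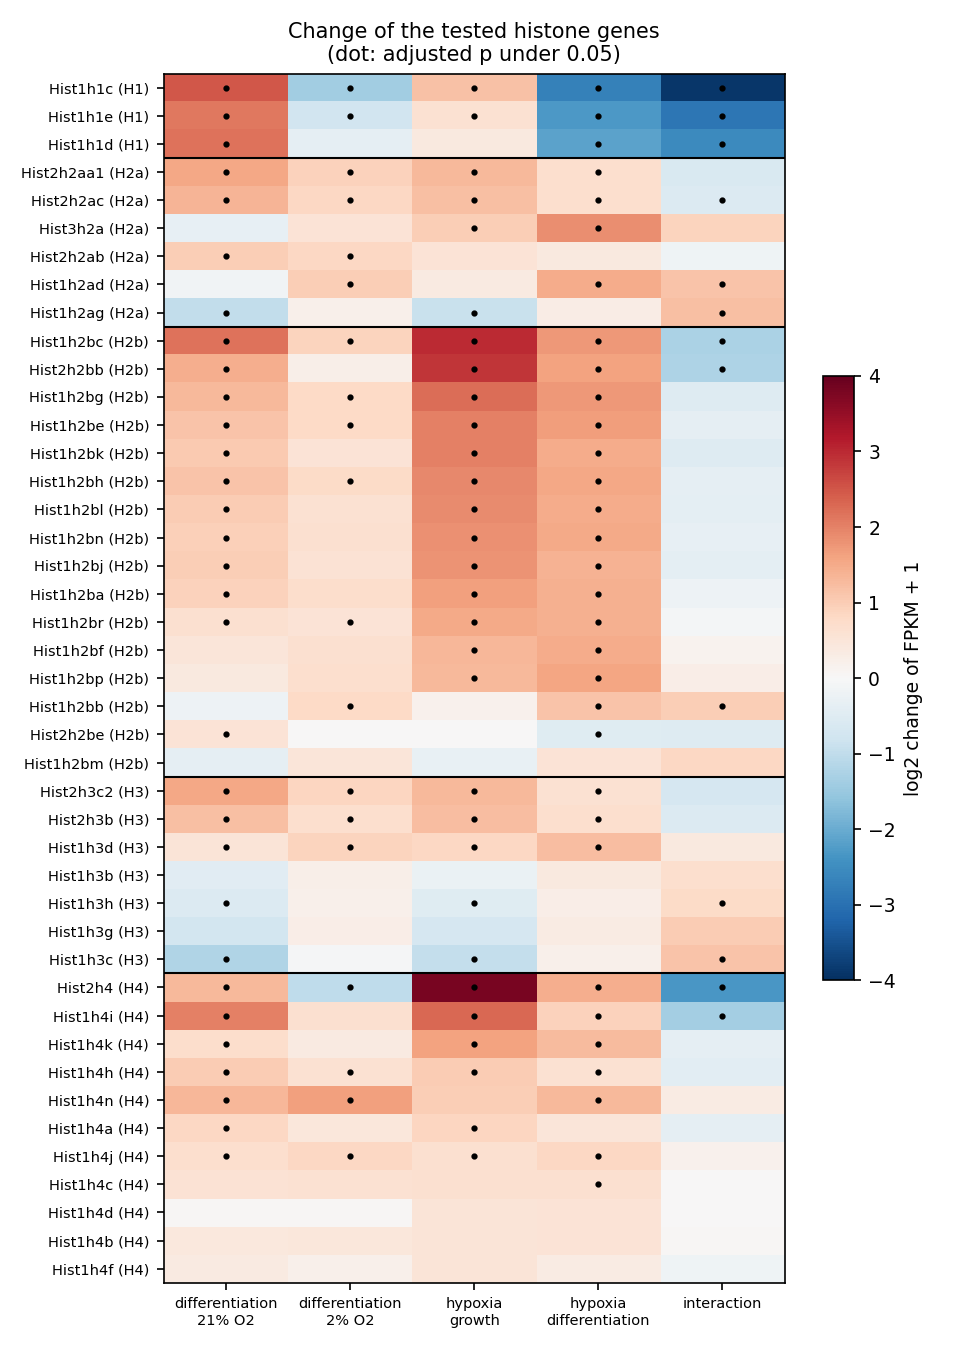
Log2 change of FPKM + 1 (colour, red higher and blue lower) for the 43 histone genes that passed the filter, by class, in the 4 comparisons and the interaction; a dot marks an adjusted p under 0.05. The 3 H1 genes are red in differentiation medium at 21% oxygen and blue at 2% oxygen in differentiation medium. In that last comparison 14 of 16 H2b genes were called higher, beside 37.5% of all genes tested.

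Linker histone genes stood out by rising in differentiation medium at 21% oxygen and being low again in differentiation medium at 2%. Hist1h1c, a somatic linker histone and the most abundant member after Hist1h2bc, measured 31.1 and 29.3 FPKM in GM_NOR, 66.2 and 73.9 in GM_HYP, 164 and 185 in DM_NOR, and 34.6 and 19.5 in DM_HYP. Its DM_NOR libraries lay above every other library, and its DM_HYP libraries lay on either side of GM_NOR. It rose 5.78-fold with differentiation at 21% oxygen (log2 change 2.49 ± 0.24, adjusted p = 0.00013) and fell with differentiation at 2% oxygen (-1.39 ± 0.24, adjusted p = 0.00487). Within differentiation medium its mean at 2% oxygen was 0.155 of that at 21% (-2.70 ± 0.24, adjusted p = 8.99e-05), and -3.09 and -2.30 without DM_HYP A and without DM_HYP B. In growth medium low oxygen went with a rise (1.19 ± 0.24, adjusted p = 0.00794), which lost its call without GM_HYP B (1.11, adjusted p = 0.0547).

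The other somatic H1 genes that passed the filter moved alike at a lower level. Hist1h1d measured 1.43 and 1.12 FPKM in GM_NOR, 1.85 and 2.11 in GM_HYP, 9.49 and 9.20 in DM_NOR, and 1.80 and 0.936 in DM_HYP. Hist1h1e measured 1.85 and 1.90, 2.97 and 3.83, 11.9 and 11.1, and 1.97 and 1.22 FPKM in the same order. For both genes the DM_NOR libraries were the 2 highest, with no overlap. Their log2 changes were 2.19 ± 0.18 and 2.12 ± 0.17 with differentiation at 21% oxygen (adjusted p = 7.49e-05 and 5.67e-05), and -2.15 ± 0.18 and -2.28 ± 0.17 with low oxygen in differentiation medium (adjusted p = 7.88e-05 and 3.96e-05), and all of these calls held in every alternative run. The interaction was negative for all 3 genes, at -3.88, -2.54 and -2.89 for Hist1h1c, Hist1h1d and Hist1h1e.

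The remaining linker genes were near the detection limit. Hist1h1b lay between 0.073 and 0.430 FPKM, which corresponds to 1 to 5 whole fragments per library, and Hist1h1a between 0 and 0.280 FPKM, or 0 to 3 fragments. Hist1h1t, a linker histone of male germ cells, was above 0 in GM_HYP B only (0.0969 FPKM). H1f0, the replacement linker histone of resting and differentiated cells, is encoded outside the clusters. It measured 182 and 183 FPKM in GM_NOR, 94.1 and 101 in GM_HYP, 284 and 292 in DM_NOR, and 87.5 and 60.4 in DM_HYP. H1f0 rose with differentiation at 21% oxygen (0.65 ± 0.16, adjusted p = 0.0101) and fell at 2% oxygen in growth medium (-0.90 ± 0.16, adjusted p = 0.00505) and in differentiation medium (-1.97 ± 0.16, adjusted p = 6.26e-05).

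The promoters of these 3 H1 genes are shown because the genes moved together. Sequences are from RefSeq, build GRCm38.p6, and end at the last base before the annotated start; the capitals mark the H1 box AAACACA, an element known from H1 promoters, and coordinates are of that build and not of mm9, which the deposited values use. They lie at chr13:23738677-23738806 (plus strand), chr13:23554902-23555031 (plus strand) and chr13:23622559-23622688 (minus strand).
Hist1h1c: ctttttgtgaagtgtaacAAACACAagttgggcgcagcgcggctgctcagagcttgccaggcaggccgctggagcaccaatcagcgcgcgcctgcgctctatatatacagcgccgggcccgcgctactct
Hist1h1d: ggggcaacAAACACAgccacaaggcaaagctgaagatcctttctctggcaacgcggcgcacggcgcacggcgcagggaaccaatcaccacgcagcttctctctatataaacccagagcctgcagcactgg
Hist1h1e: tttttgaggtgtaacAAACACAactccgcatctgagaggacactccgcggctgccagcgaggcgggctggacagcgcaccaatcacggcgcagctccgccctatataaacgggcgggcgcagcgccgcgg
The box starts 112, 122 and 115 bases before the start, and each promoter holds 1 CCAAT downstream of it. Searched on both strands over 250 bases before to 50 bases after the start, AAACACA was present in 5 of 6 H1 promoters and in 7.18% of the 32851 promoters in the RefSeq table. The match describes these letters only.

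H2b genes formed the largest group that was higher at low oxygen in both media. Of the 16 tested, 13 were higher at 2% oxygen in growth medium and none lower, beside 13.5% and 28% of all genes tested. In differentiation medium 14 were higher and 1 lower, beside 37.5% and 27.7%. With differentiation at 21% oxygen 12 were higher and none lower, beside 25.5% and 41%. A gene could pass the filter through the group where it is high, so these counts are descriptions. Hist1h2bc, the most abundant H2b gene, measured 10.9 and 9.47 FPKM in GM_NOR, 88.7 and 87.1 in GM_HYP, 47.5 and 50.5 in DM_NOR, and 199 and 136 in DM_HYP. The 4 groups did not overlap, and the order was GM_NOR, DM_NOR, GM_HYP, DM_HYP. Its log2 change was 2.99 ± 0.17 with low oxygen in growth medium (adjusted p = 7.63e-05), 1.73 ± 0.17 with low oxygen in differentiation medium (adjusted p = 0.000153), and 2.16 ± 0.17 with differentiation at 21% oxygen (adjusted p = 5.59e-05). Its rise with differentiation at 2% oxygen was smaller (0.90 ± 0.17, adjusted p = 0.00725), was not called from the 4 libraries of that comparison alone (adjusted p = 0.0543), and the interaction was -1.27 ± 0.24 (adjusted p = 0.00467).

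Further H2b genes repeated this order at lower levels. Hist1h2bg measured 2.230 and 2.23 FPKM in GM_NOR, 13.6 and 14.9 in GM_HYP, 6.24 and 7.75 in DM_NOR, and 30.8 and 20.7 in DM_HYP, without overlap between groups. It rose by 2.24 ± 0.19 with low oxygen in growth medium (adjusted p = 0.000295) and by 1.72 ± 0.19 in differentiation medium (adjusted p = 0.00026). Hist1h2bj measured 3.22 and 1.37, 10.4 and 9.68, 5.19 and 5.39, and 22.1 and 11.01 FPKM in the same order of groups. Its rise with low oxygen in growth medium was 1.81 ± 0.36 (adjusted p = 0.00769); that in differentiation medium, 1.40 ± 0.36 (adjusted p = 0.0121), was 0.93 without DM_HYP A and not called without DM_NOR A or B (adjusted p = 0.0654 and 0.062). Hist1h2ba, a form known from testis, measured 0.444 and 0.389, 3.72 and 3.13, 1.89 and 1.51, and 8.59 and 4.47 FPKM. It rose at low oxygen in growth medium (1.64 ± 0.25, adjusted p = 0.00284) and in differentiation medium (1.43 ± 0.25, adjusted p = 0.00237).

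The other 9 H2b genes that were higher at low oxygen in both media rose by 1.31 to 2.85 in growth medium and by 1.42 to 1.67 in differentiation medium. The levels of several H2b genes kept a nearly fixed ratio to Hist1h2bc. Outside GM_NOR, Hist1h2bg stood at 13.1% to 17.1% of the Hist1h2bc level, Hist1h2be at 9.07% to 11.1% and Hist1h2ba at 3.00% to 4.33%. In GM_NOR, Hist1h2bg was at 20.5% and 23.6%. H2b genes have closely similar coding sequences, the sources do not say how fragments that match several of them were assigned, and no sequence of the transcripts was used here, so values of single H2b genes other than by their class sum are uncertain. The same holds within the H2a, H3 and H4 classes.

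The H2b genes not called higher at low oxygen in both media were Hist1h2bb, Hist1h2bm, Hist2h2be and the low Hist3 genes. Hist1h2bb, named after its values were seen, was higher at low oxygen in differentiation medium (1.15 ± 0.16, adjusted p = 0.000896) and changed by 0.16 ± 0.16 in growth medium (adjusted p = 0.459). Hist1h2bm, likewise, had changes of 0.54 ± 0.24 and -0.30 ± 0.24 there, neither called (adjusted p = 0.088 and 0.365). Hist2h2be, known for a polyadenylated transcript, measured 0.694 and 0.813 FPKM in GM_NOR, 0.942 and 0.616 in GM_HYP, 1.70 and 1.40 in DM_NOR, and 0.910 and 0.705 in DM_HYP. It was highest in DM_NOR, as the H1 genes were, and was 0.54 ± 0.13 higher with differentiation at 21% oxygen (adjusted p = 0.00973) and 0.49 lower with low oxygen in differentiation medium (-0.49 ± 0.13, adjusted p = 0.0138). Both calls were lost without DM_NOR A (adjusted p = 0.0542 and 0.0722), the first also without GM_NOR A (0.054). Hist3h2ba and Hist3h2bb-ps did not pass the filter; Hist3h2ba held 0 to 5 whole fragments per library, and Hist3h2bb-ps held 0 or 1 fragment in 7 libraries and 7 fragments, 0.922 FPKM, in DM_HYP B.

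**Figure D3:**
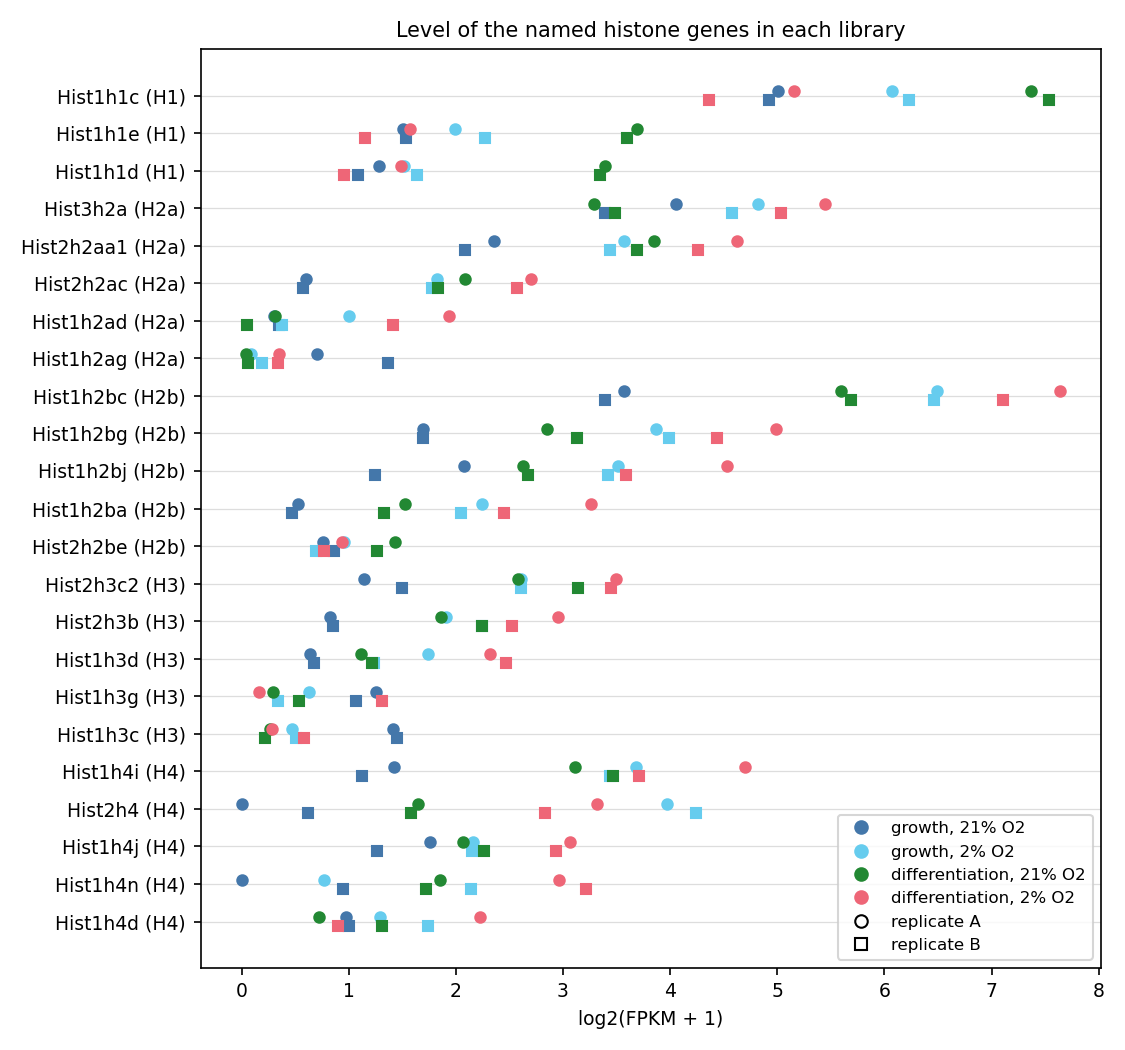
Level of the 23 named histone genes that passed the filter, as log2(FPKM + 1), in each library; colours are the 4 groups, circles replicate A and squares replicate B. Hist1h1c, Hist1h1d and Hist1h1e have their highest points in differentiation medium at 21% oxygen, while Hist1h2bc has its highest, 199 and 136 FPKM, in differentiation medium at 2% oxygen.

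Most H2a genes were low, and the abundant ones came from outside the Hist1 cluster. Hist3h2a measured 15.6 and 9.53 FPKM in GM_NOR, 27.3 and 23.0 in GM_HYP, 8.79 and 10.2 in DM_NOR, and 42.7 and 31.9 in DM_HYP. Its low-oxygen libraries lay above all libraries at 21% oxygen in both media, and the GM_NOR and DM_NOR libraries overlapped. It rose with low oxygen in differentiation medium (1.86 ± 0.24, adjusted p = 0.000554); the rise in growth medium (0.98 ± 0.24, adjusted p = 0.0178) was 0.65 and not called without GM_NOR B (adjusted p = 0.0666), nor called without GM_HYP A or B (adjusted p = 0.105 and 0.0555).

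Hist2h2aa1 and Hist2h2ac rose in all 4 comparisons. Hist2h2aa1 measured 4.11 and 3.24 FPKM in GM_NOR, 10.9 and 9.81 in GM_HYP, 13.4 and 11.9 in DM_NOR, and 23.6 and 18.2 in DM_HYP. Hist2h2ac measured 0.514 and 0.489, 2.55 and 2.44, 3.24 and 2.57, and 5.51 and 4.93 FPKM. For both genes GM_NOR was lowest, DM_HYP highest and the 4 groups did not overlap. With differentiation at 21% oxygen their changes were 1.55 ± 0.16 (adjusted p = 0.000173) and 1.37 ± 0.12 (adjusted p = 8.44e-05), and with low oxygen in growth medium 1.28 ± 0.16 (adjusted p = 0.00117) and 1.22 ± 0.12 (adjusted p = 0.00048). The smallest of their changes, with low oxygen in differentiation medium, were 0.67 ± 0.16 (adjusted p = 0.00857) and 0.68 ± 0.12 (adjusted p = 0.00227); that of Hist2h2aa1 was not called under median-of-ratios scaling (0.48, adjusted p = 0.0543) or without DM_NOR B (0.59, adjusted p = 0.067).

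Hist1 cluster H2a genes rarely reached 1 FPKM. Hist1h2ag measured 0.633 and 1.58 FPKM in GM_NOR, 0.061 and 0.143 in GM_HYP, 0.026 and 0.045 in DM_NOR, and 0.271 and 0.267 in DM_HYP, with GM_NOR above all other libraries. Its change was -0.99 ± 0.20 with differentiation at 21% oxygen (adjusted p = 0.00427) and -0.90 ± 0.20 with low oxygen in growth medium (adjusted p = 0.0118), the second not called without GM_HYP A or B (adjusted p = 0.0709 and 0.051). Hist1h2ad measured 0.230 and 0.274, 1.003 and 0.303, 0.241 and 0.036, and 2.83 and 1.67 FPKM, so that it was highest in DM_HYP. It rose with low oxygen in differentiation medium (1.496 ± 0.248, adjusted p = 0.00176).

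Many H2a and H2b genes of the Hist1 cluster lie head to head and share the stretch between their start sites as a promoter. RefSeq starts placed 9 such pairs within 164 to 281 bases of each other. In all 9 the H2b gene rose at low oxygen in both media, by 1.31 to 2.24 in growth medium and 1.40 to 1.72 in differentiation medium under the fit without a filter. The H2a partners reached at most 1.58 FPKM in any library, except Hist1h2ad with 2.83, and 1 of them, Hist1h2aa, was at 0 throughout. Changes of the other 8 partners lay between -0.90 and 0.37 in growth medium and between -0.18 and 1.496 in differentiation medium. Most partners lay below 1 FPKM, where adding 1 draws log2 changes toward 0, so their sizes cannot be set beside those of H2b. With low oxygen in differentiation medium the mean FPKM of Hist1h2an rose 11.6-fold at a fitted change of 0.26. That of Hist1h2ak fell there to 0.185 of its level at -0.18, and that of Hist1h2ag fell in growth medium to 0.0922 at -0.90. Levels across these partners are per length, and assignment of fragments between near-identical H2a genes bears on them as for H2b.

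**Figure D4:**
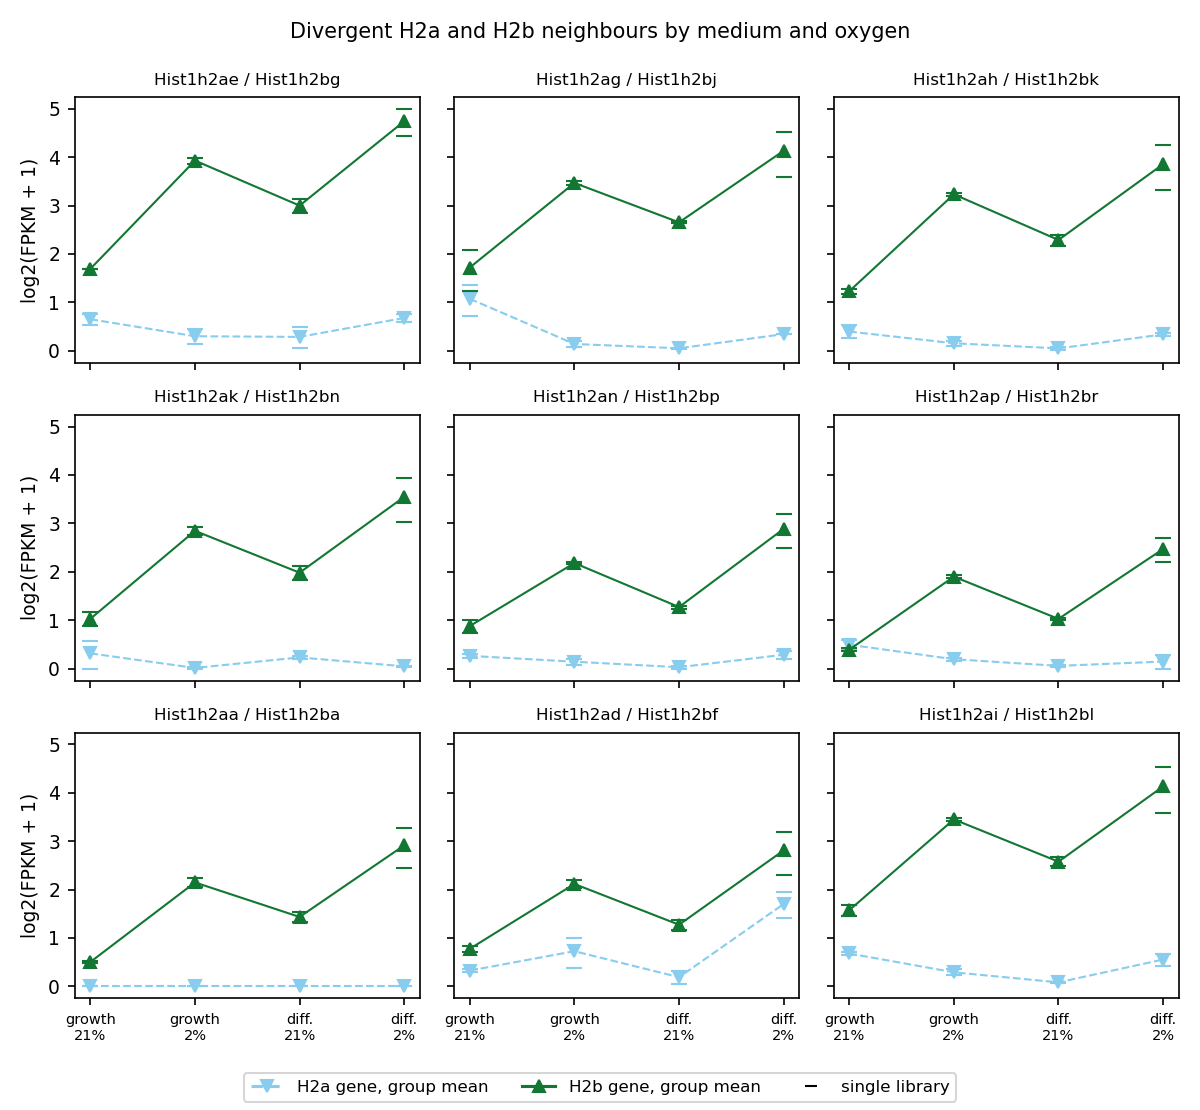
Levels of 9 head-to-head pairs of H2a (light blue, dashed) and H2b genes (green, solid) as log2(FPKM + 1) of the group mean, with dashes for single libraries, in growth and differentiation (diff.) medium at 21% and 2% oxygen. Each H2b line is higher at 2% than at 21% oxygen in both media. On this scale, which flattens changes below 1 FPKM, the H2a partner stays low except for Hist1h2ad in differentiation medium at 2% oxygen.

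The stretches between a pair of starts are printed for the pair with the highest H2b level and for the pair with the highest H2a level. Both are from RefSeq, build GRCm38.p6, and read toward the H2b gene. The first lies at chr13:23571221-23571399 (plus strand), between Hist1h2ae and Hist1h2bg, and its capitals mark the octamer ATTTGCAT, the binding sequence of the S-phase H2b factor Pou2f1. The second lies at chr13:23574208-23574380 (minus strand), between Hist1h2ad and Hist1h2bf, and its capitals mark 4 CCAAT boxes, read as CCAAT or ATTGG.
Hist1h2bg: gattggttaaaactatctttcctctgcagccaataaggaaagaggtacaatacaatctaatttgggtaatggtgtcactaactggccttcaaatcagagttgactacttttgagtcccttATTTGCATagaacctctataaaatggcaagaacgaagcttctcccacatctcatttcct
Hist1h2bf: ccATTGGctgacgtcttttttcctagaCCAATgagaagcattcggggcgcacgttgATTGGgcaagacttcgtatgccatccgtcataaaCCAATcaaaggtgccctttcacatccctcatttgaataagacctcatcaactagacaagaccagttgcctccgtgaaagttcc
The octamer starts 59 bases before the start of Hist1h2bg. On both strands of the RefSeq promoters, which 61 members have and which span the same window around the start, ATTTGCAT was present in 7 of 15 H2b and 7 of 18 H2a promoters, in no H1, H3 or H4 promoter and in 1.74% of all promoters, and a shared stretch counts for both of its genes. CCAAT was present in every H1, H2a, H2b and H3 promoter of the table, in 3 of 12 H4 promoters and in 37.4% of all promoters. ACGTG, the core of the hypoxia response element, was present in 13 of 61 member promoters, 21.3%, beside 19.6% of all promoters, and in 2 of 15 H2b promoters.

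H3 genes did not all move alike, and their courses did not follow the cluster throughout. The Hist2 genes Hist2h3c2 and Hist2h3b and the Hist1 gene Hist1h3d were lowest in GM_NOR, whereas Hist1h3c was highest there. Hist2h3c2 measured 1.21 and 1.83 FPKM in GM_NOR, 5.12 and 5.09 in GM_HYP, 4.96 and 7.84 in DM_NOR, and 10.3 and 9.95 in DM_HYP. It rose with differentiation at 21% oxygen (1.54 ± 0.20, adjusted p = 0.000619) and with low oxygen in growth medium (1.29 ± 0.20, adjusted p = 0.00325). Its change with low oxygen in differentiation medium (0.62 ± 0.20, adjusted p = 0.0342) was 0.33 and not called without DM_NOR A (adjusted p = 0.186), and was not called without DM_HYP A or B either (adjusted p = 0.0831 and 0.0625).

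Hist2h3b measured 0.770 and 0.811 FPKM in GM_NOR, 2.75 and 3.73 in GM_HYP, 2.63 and 3.75 in DM_NOR, and 6.76 and 4.76 in DM_HYP, the same order with GM_HYP and DM_NOR overlapping. Its rises with differentiation at 21% oxygen (1.21 ± 0.20, adjusted p = 0.00183) and with low oxygen in growth medium (1.23 ± 0.20, adjusted p = 0.00379) were close to those of Hist2h3c2. Hist1h3d measured 0.561 and 0.595, 2.35 and 1.36, 1.17 and 1.33, and 3.99 and 4.52 FPKM and rose with low oxygen in differentiation medium (1.22 ± 0.17, adjusted p = 0.000788).

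Hist1h3c ran the other way. It measured 1.66 and 1.74 FPKM in GM_NOR, 0.390 and 0.420 in GM_HYP, 0.200 and 0.165 in DM_NOR, and 0.220 and 0.494 in DM_HYP. The GM_NOR libraries lay above all others. It fell with differentiation at 21% oxygen (-1.19 ± 0.11, adjusted p = 0.000133) and with low oxygen in growth medium (-0.94 ± 0.11, adjusted p = 0.00109), and the change with low oxygen in differentiation medium was 0.19 ± 0.11 (adjusted p = 0.179), and 0.34 without DM_HYP A (adjusted p = 0.0115). Hist1h3g measured 1.39 and 1.10, 0.543 and 0.269, 0.228 and 0.453, and 0.119 and 1.49 FPKM. Its DM_HYP libraries were thus the lowest and the highest of the 8, and no comparison of it was called with all libraries. From the libraries compared alone it was called lower with differentiation at 21% oxygen (-0.75, adjusted p = 0.00402) and with low oxygen in growth medium (-0.68, adjusted p = 0.0164), as it was without either DM_HYP library. Without DM_HYP A it was called higher with low oxygen in differentiation medium (0.90, adjusted p = 0.00419) and with differentiation at 2% oxygen (0.83, adjusted p = 0.00915). In growth medium 8 of the 12 H3 genes had both libraries at 2% oxygen below both at 21%, beside 38.8% of all genes above 0. Among these 8, Hist2h3c1 was at most 0.0096 FPKM in any library.

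H4 genes, nearly all of which encode the same protein, followed H2b in their sums, with Hist2h4 the member most changed by low oxygen in growth medium. Hist2h4 was listed at 0 and at 0.540 FPKM in GM_NOR and measured 14.7 and 17.9 in GM_HYP, 2.13 and 1.98 in DM_NOR, and 8.98 and 6.14 in DM_HYP. GM_HYP was its highest group, without overlap. It rose by 3.80 ± 0.25 with low oxygen in growth medium (adjusted p = 0.000117) and by 1.46 ± 0.25 in differentiation medium (adjusted p = 0.00188), and its change with differentiation was 1.30 ± 0.25 at 21% oxygen (adjusted p = 0.00323) and -1.03 ± 0.25 at 2% (adjusted p = 0.0171). The last was not called without GM_HYP A or B (adjusted p = 0.0534 and 0.103), and with a pseudocount of 0.1 neither it nor the rise in differentiation medium was called (adjusted p = 0.279 and 0.0726).

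Hist1h4i was the H4 gene with the highest single value. It measured 1.69 and 1.17 FPKM in GM_NOR, 11.8 and 9.82 in GM_HYP, 7.65 and 10.0 in DM_NOR, and 25.0 and 12.1 in DM_HYP, with GM_NOR well below the rest. It rose with low oxygen in growth medium (2.28 ± 0.32, adjusted p = 0.00201) and with differentiation at 21% oxygen (2.01 ± 0.32, adjusted p = 0.00143). With low oxygen in differentiation medium its change was 0.92 ± 0.32 (adjusted p = 0.0411); it was called in 6 of 18 fits, this one included, and adjusted p reached 0.197, and was 0.42 without DM_HYP A (adjusted p = 0.12) and 1.41 without DM_HYP B. Hist1h4j was flatter, at 2.39 and 1.39 FPKM in GM_NOR, 3.48 and 3.44 in GM_HYP, 3.20 and 3.81 in DM_NOR, and 7.35 and 6.67 in DM_HYP. It rose with low oxygen in differentiation medium (0.83 ± 0.18, adjusted p = 0.0054).

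Of the 6 remaining H4 genes tested, 3 were higher with low oxygen in growth medium, by 0.86 to 1.62, and none lower. Among all genes tested 13.5% were higher and 28% lower. Hist1h4n measured 4.7e-05 and 0.926 FPKM in GM_NOR, 0.709 and 3.40 in GM_HYP, 2.62 and 2.29 in DM_NOR, and 6.80 and 8.30 in DM_HYP. Its change with differentiation at 2% oxygen was 1.64 ± 0.47 (adjusted p = 0.0325) and 0.95 without GM_HYP A. That change was called in 9 of 18 fits, the main one included. Hist1h4m, which did not pass the filter, measured 1.16 and 1.446 FPKM in GM_NOR A and GM_HYP A, where Hist1h4n was lowest. In every other library Hist1h4m was at most 0.00496 FPKM. Whether fragments were divided between these 2 genes was not tested. Hist1h4d measured 3.68 FPKM in DM_HYP A and 0.866 in DM_HYP B, and no comparison of it was called with all libraries; without DM_HYP B its change with low oxygen in differentiation medium was 1.21 (adjusted p = 0.00839). Hist4h4, the gene on chromosome 6, held 0 to 2 whole fragments per library and did not pass the filter.

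The 2 DM_HYP libraries differed in opposite directions between classes. Among members with at least 0.5 FPKM in one of them, A was the higher library for 16 of 17 H2b genes, 9 of 11 H4 genes and all 3 H1 genes, whereas B was higher for 7 of 9 H3 genes. Over all genes at that level, B was the higher for 64.3%. The S phase and DNA replication list was higher in B for 38 of 38 genes, with a median log2(FPKM + 1) of 2.83 in A and 4.36 in B, beside 3.67 and 3.51 in GM_NOR and 2.11 and 2.11 in DM_NOR. Whether the difference in these S phase genes plays a part in the histone differences was not tested.

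**Figure D5:**
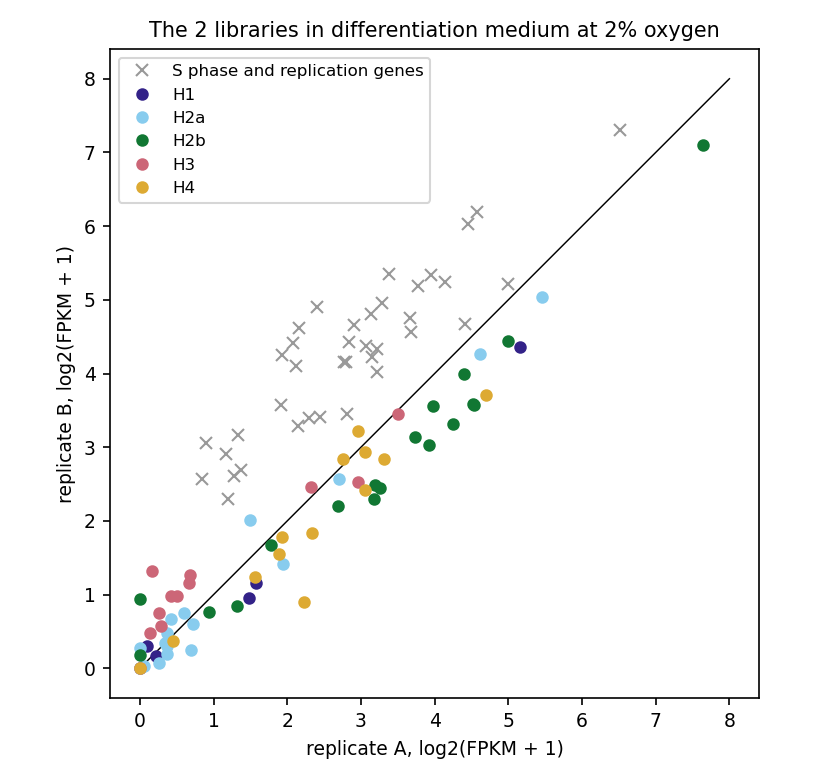
Replicate B against replicate A of differentiation medium at 2% oxygen, both as log2(FPKM + 1), for histone genes by class (dots) and S phase and replication genes (crosses); the line marks equal levels. All 38 crosses lie above the line, whereas 16 of the 17 H2b genes with at least 0.5 FPKM in either library lie below it.

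Variant histones were mostly lower at low oxygen in growth medium. Of the 11 in the list that were tested, none was higher and 8 were lower at 2% oxygen in growth medium, 2 were higher and 4 lower in differentiation medium, and 1 was higher and 6 lower with differentiation at 21% oxygen, beside 13.5% and 28%, 37.5% and 27.7%, and 25.5% and 41% of all genes tested. H3f3a, a replacement H3 gene, measured 441 and 438 FPKM in GM_NOR, 251 and 239 in GM_HYP, 395 and 413 in DM_NOR, and 295 and 248 in DM_HYP, and fell at low oxygen by 0.84 ± 0.10 on the log2 scale in growth medium (adjusted p = 0.000996) and by 0.58 ± 0.10 in differentiation medium (adjusted p = 0.00208). H3f3b, its companion gene, fell by 0.50 ± 0.09 in both (adjusted p = 0.00445 and 0.00205). H2afz, the H2A.Z gene, fell in growth medium (-0.92 ± 0.19, adjusted p = 0.00816), and its change in differentiation medium was -0.40 ± 0.19 (adjusted p = 0.0991). H2afx, whose protein marks DNA breaks, H1fx and the macroH2A gene H2afy fell with differentiation at 21% oxygen, by 1.19 ± 0.29, 1.496 ± 0.084 and 0.76 ± 0.11 (adjusted p = 0.00942, 1.36e-05 and 0.00108). The centromere histone gene Cenpa fell there by 3.24 ± 0.67 (adjusted p = 0.00472) and was 5.14 FPKM in DM_HYP A but 31.5 in DM_HYP B.

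Genes for making histone mRNA changed in both directions. Of 31 tested, 6 were higher and 9 lower with differentiation at 21% oxygen, a split that was 11 and 4 under median-of-ratios scaling, 2 were higher and 6 lower at 2% oxygen in growth medium (6 and 5 under that scaling), and 11 were higher and 3 lower in differentiation medium. Of all genes tested 25.5% and 41%, 13.5% and 28%, and 37.5% and 27.7% were higher and lower in these comparisons, so that the 11 stand near the share of all genes. In growth medium the counts were 0 and 4 without GM_HYP A, 1 and 4 without GM_NOR A or either DM_NOR library, and 5 and 8 without either DM_HYP library. Without DM_NOR A the counts were 1 and 5 with differentiation at 21% oxygen and 8 and 1 with low oxygen in differentiation medium. Slbp, the stem-loop binding protein, measured 16.2 and 16.8 FPKM in GM_NOR, 16.1 and 14.6 in GM_HYP, 7.23 and 7.19 in DM_NOR, and 16.1 and 37.5 in DM_HYP. It was lowest in DM_NOR, where the H1 genes were highest; it fell with differentiation at 21% oxygen (-1.09 ± 0.33, adjusted p = 0.0244) and rose with low oxygen in differentiation medium (1.64 ± 0.33, adjusted p = 0.00439). Lsm10, a subunit of the U7 particle that cleaves histone pre-mRNA, measured 14.95 and 15.1 FPKM in DM_NOR and 25.5 and 28.8 in DM_HYP and showed the same directions (-0.98 ± 0.14, adjusted p = 0.000928, and 0.81 ± 0.14, adjusted p = 0.00229). Npat, the coactivator of replication-dependent histone genes, lay between 2.84 and 4.82 FPKM, and none of its changes was called (log2 changes of -0.01 to 0.17). Casp8ap2, a component of the same nuclear body, had no call either, Hinfp, the H4 promoter factor, was higher with low oxygen in differentiation medium (7.61 and 10.99 FPKM in DM_HYP A and B, 0.66 ± 0.19, adjusted p = 0.0183), and Lsm11 was higher with differentiation at 21% oxygen (0.39 ± 0.14, adjusted p = 0.0411).

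Histone chaperones escort histones and place them on DNA. Of 28 chaperone and assembly genes tested, 2 were higher and 7 lower at 2% oxygen in growth medium, 14 were higher and 7 lower in differentiation medium, and 5 were higher and 9 lower with differentiation at 21% oxygen (11 and 6 under median-of-ratios scaling). All genes tested had 13.5% and 28%, 37.5% and 27.7%, and 25.5% and 41%, so the shares lower at 2% oxygen in both media were near those of all genes. Without DM_NOR B the last 2 pairs of counts were 7 and 6, and 3 and 5, and without GM_HYP B the first was 0 and 4. Chaf1a, the large subunit of the replication-coupled assembly factor, measured 1.75 and 2.30 FPKM in DM_NOR but 4.26 and 22.3 in DM_HYP, and Asf1b 19.2 and 19.3 against 16.9 and 74.9, so the DM_HYP values depended on the library. Nasp, a carrier of H3 and H4, fell with low oxygen in growth medium (-0.97 ± 0.25, adjusted p = 0.02). Hira, which deposits H3.3 outside replication, fell with differentiation at 21% oxygen (-0.70 ± 0.09, adjusted p = 0.000665) and rose with low oxygen in differentiation medium to 11.4 and 11.7 FPKM in DM_HYP A and B (0.81 ± 0.09, adjusted p = 0.000335).

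Of 38 S phase and DNA replication genes none was higher and 20 were lower with differentiation at 21% oxygen, where H2b genes were higher. At 2% oxygen in growth medium none was higher and 3 lower, and in differentiation medium 20 were higher and none lower, beside 25.5% and 41%, 13.5% and 28%, and 37.5% and 27.7% of all genes. These counts moved with single libraries: with differentiation at 21% oxygen 8 were lower without GM_NOR A, DM_NOR A or DM_NOR B, 10 without GM_NOR B and 36 without DM_HYP A or B, and with low oxygen in growth medium 23 and 24 were lower without DM_HYP A and B and none without any of the other 6. With low oxygen in differentiation medium 37 were higher without DM_HYP A and 9 without either DM_NOR library. Without DM_HYP B, 5 were higher and 14 lower with differentiation at 2% oxygen, against 5 and 0 with it, and without DM_HYP A all 38 were higher. Pcna, the replication clamp, measured 71.6 and 72.7 FPKM in GM_NOR, 63.1 and 58.9 in GM_HYP, 48.4 and 51.5 in DM_NOR, and 90.4 and 156 in DM_HYP. Ccna2, the S phase cyclin, fell with differentiation at 21% oxygen (-2.26 ± 0.69, adjusted p = 0.0249) and measured 4.31 and 28.9 FPKM in DM_HYP. The G1/S cyclin gene Ccne2 rose with low oxygen in differentiation medium to 3.89 and 9.53 FPKM in DM_HYP A and B (1.80 ± 0.34, adjusted p = 0.0032), and E2f1, a G1/S transcription factor, rose with low oxygen in growth medium (0.56 ± 0.16, adjusted p = 0.0322) and in differentiation medium, to 13.7 and 19.8 FPKM in DM_HYP A and B (1.97 ± 0.16, adjusted p = 7.03e-05).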

How the data were processed

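RNA-seq was made from 8 of 24 samples; the others were not analysed here. The authors deposited 1 table of FPKM per gene and library; per the submitters' processing notes STAR 2.5.1b, Cufflinks 2.2.1 and build mm9 were used, while the annotation, the handling of multiply matching reads and any scaling between libraries are not given in the sources used here. FPKM hide the number of fragments, so precision at low levels is known only where values came out as whole multiples of 1 fragment (tolerance 0.03 of a fragment, 5 members). Nothing further was done to the FPKM before log2(FPKM + 1).

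limma 3.58.1 (R 4.3.3) with an intensity trend was fitted to all 8 libraries and 12389 genes, leaving 4 residual degrees of freedom; tests were two-sided, with Benjamini-Hochberg adjustment over all genes tested and a threshold of 0.05. With 2 libraries a group an exact permutation test cannot reach 0.05. The fitting step was also tested on simulated data. The members, lists and named genes were chosen with earlier results of these data known. Named were the 3 highest members of each class, 14 members known for their role or place, the 2 largest called rises and falls of each comparison, the members with the most different DM_HYP libraries, and 22 genes of the lists.

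All members matched a current RefSeq symbol and 61 a promoter; Hist1h2bc, Hist2h2be, Hist2h4, Hist1h3a, Hist1h3f and Hist3h2bb-ps had none. Alternatives were another pseudocount, other filters, 2 scalings, the libraries compared alone, robust moderation, a fold threshold, replicate blocks and leaving out each library. Tools were Python 3.11.15, pandas 2.3.3, numpy 2.4.6 and matplotlib 3.10.9.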

Additional observations from a re-analysis of the deposited data

Results flagged for a closer look

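For 10 named members the response to differentiation medium differed between 2% and 21% oxygen by the interaction test of the limma fit (adjusted p from 0.00014 to 0.0403). It was negative for the linker genes Hist1h1c (-3.88), Hist1h1d (-2.54) and Hist1h1e (-2.89), which rose at 21% oxygen and did not rise at 2%. It was also negative for Hist2h4 (-2.33), Hist1h4i (-1.37), Hist1h2bc (-1.27) and Hist2h2ac (-0.54). It was positive for Hist1h2ag (1.19), Hist1h3c (1.14) and Hist1h2ad (1.13). The interaction of Hist1h2ad was called in 6 of 16 fits, that of Hist1h4i in 9 of 17 and that of Hist2h2ac in 11 of 17. These counts include the main fit, and leaving out GM_NOR A was among the alternatives that lost all 3 calls.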

How the results depend on the processing

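No called change of a named member turned its sign in any alternative, but 150 of their values lost a call and 48 gained one. The called members fell from 31 to 19 for differentiation at 21% oxygen and from 19 to 3 (1 higher, 2 lower) for differentiation at 2% oxygen when a log2 change of at least 1 was also asked, and to 9 for the latter from its own libraries. Leaving out a library gave 19 to 36 calls for differentiation at 21% oxygen, 6 to 27 for differentiation at 2% oxygen and 9 to 24 for the interaction, where 9 were higher and 7 lower without DM_HYP B. For the interaction, 8 were called at a mean of 5 FPKM and 13 without a filter, then 7 higher and 6 lower; the first tests fewer genes, and the cause of the other shifts was not tested. The H3 sums without Hist2h3c2 had ratios of 0.808 (differentiation at 21% oxygen) and 0.983 (low oxygen in growth medium). For the lists, the majority turned for variants with differentiation at 2% oxygen (1 call from its own libraries, 1 without either GM_HYP or either DM_NOR library, 6 without DM_HYP B), and for S phase genes there without DM_HYP B (19 calls, and 0 to 38 over the libraries left out). Under median-of-ratios and upper-quartile scaling it turned for mRNA processing genes (15 and 16 calls with differentiation at 21% oxygen, 11 and 10 with low oxygen in growth medium) and for chaperones (17 and 16 with differentiation at 21% oxygen). No shared difference between A and B was seen: the A minus B differences of the groups correlated at -0.166 to 0.042. Those with GM_HYP were -0.101, -0.137 and -0.166. Such correlations cannot show whether the libraries were made as pairs. With a replicate block 30, 18, 30, 33 and 15 members were called in the order of the report, against 31, 19, 30, 32 and 13, and with the letters of GM_HYP crossed, chosen after seeing the data, 30, 16, 29, 31 and 12. Unknown fragment counts limit all members below about 1 FPKM.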
